A study of Mus musculus with 8 samples.

Results

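The constitutive proteasome subunit genes were taken as all genes whose symbol starts with Psma, Psmb, Psmc or Psmd followed by a digit, without the interferon-inducible Psmb8, Psmb9 and Psmb10 and without pseudogenes. The rule found 37 of the 31053 genes in the files, and it used names alone, not measured values. Of these, 31 encode subunits of the standard 26S proteasome, 14 in the 20S core (7 alpha, 7 beta) and 17 in the 19S cap (6 ATPases and 3 other proteins of its base, 8 proteins of its lid). The other 6 are the cap assembly chaperones Psmd5, Psmd9 and Psmd10, the tissue-restricted subunits Psma8 and Psmb11, and Psmc3ip, which shares the name but encodes a meiotic recombination factor.

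The cells were fibro/adipogenic progenitors (FAPs), connective tissue cells of skeletal muscle that carry PDGFRα. They were sorted as live PDGFRα-positive single cells from pooled hindlimb muscles (psoas included) of female mice aged 8 months and profiled by droplet sequencing of 3′ transcript ends. One group is wild type C57BL/6, with 4 labelled samples. The other is the dysferlin knockout (Dysferlin KO), also with 4, whose strain is written BLA/J in the characteristics and B6A/J in the protocol. Dysferlin is a muscle membrane repair protein, and its gene Dysf is mutated in a limb-girdle muscular dystrophy. Each group was deposited as 1 matrix in which the 4 samples cannot be told apart, so each group was 1 library, no test between groups was possible, and 95% intervals cover counting error only.

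The proteasome is the main protease of the cytosol and nucleus. Its barrel-shaped core has outer rings of alpha subunits, which form the gate, and inner rings of beta subunits, of which Psmb5, Psmb6 and Psmb7 cut chymotrypsin-like, caspase-like and trypsin-like bonds. The cap binds ubiquitin-tagged proteins, removes the ubiquitin and threads the unfolded chain into the core. In skeletal muscle the pathway is best known for breaking down myofibrillar proteins during atrophy. Interferon induces Psmb8, Psmb9 and Psmb10, which replace Psmb5, Psmb6 and Psmb7 in newly built cores to form the immunoproteasome.

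Cells with at least 500 genes, at most 10% mitochondrial counts and at least 1 Pdgfra count were used, 1533 of 2073 barcodes in the wild type and 1435 of 1724 in the knockout. The protocol aimed at about 8000 cells. They held 14420247 and 19170199 unique molecular identifiers (UMIs, 1 per captured transcript), with a median of 9177 per wild type cell and 12717 per knockout cell. The 2 matrices shared 13 barcodes, 2 of them among the selected cells. All 10 fixed FAP markers had a UMI in at least 50% of the cells of both libraries. Markers of other cells were low except for the globin genes in wild type. The summed level of 6 macrophage markers was 5.48 CPM (UMIs per 1000000 UMIs of the selected cells) in wild type and 63.2 in knockout cells, 1 gene holding 54.9 of the latter, with Ptprc and C1qa at 0 in wild type. The sums were 52.4 and 32.1 CPM for 6 endothelial markers, 0.0693 and 0.261 for 4 T or NK markers (Cd3e and Trbc2 at 0 in both), 5.06 and 10.4 for 4 mural, 29.8 and 34.8 for 4 tenocyte, 35.6 and 21.2 for 6 myogenic (Myf5 at 0 in both), 4.78 and 2.87 for 4 Schwann (Sox10 at 0 in both), and 749 and 28.6 for 3 globin genes. Their part in the results was not tested. Dysf itself had 9 UMIs in wild type (0.624 CPM) and 14 in knockout cells (0.730 CPM), and since the labels do not say which sequence is altered, these 3′ tags do not check the genotype.

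The proteasome subunit genes were moderately expressed, the highest of the 31 being 4.16 times the lowest in wild type and 4.27 times in knockout cells. The 31 subunits together made up 0.347% of wild type and 0.362% of knockout UMIs. Since each transcript gives 1 tag, CPM was compared between genes without dividing by length. Whether transcripts of different genes are captured and matched equally well was not tested. The 14 core genes summed to 1994 CPM (1971 to 2017) in wild type and 2059 CPM (2039 to 2080) in knockout cells, and the 17 cap genes to 1475 CPM (1455 to 1495) and 1565 CPM (1548 to 1583). Per gene, the core was 1.64 times the cap in wild type and 1.60 times in knockout cells. The highest core gene was 3.58 times the lowest in wild type and 3.71 times in knockout cells, and the highest cap gene 2.62 and 2.56 times the lowest. By mean level, 3 core genes and none of these 17 cap genes reached 200 CPM, whereas 4 core and 12 cap genes were below 100 CPM. The cap values cover only the 17 genes that the naming rule takes in. Sem1, a cap subunit with another name, was at 347 CPM in wild type and 350 CPM in knockout cells. Over the 2 libraries the subunits stood between the 54.6th and the 90.0th percentile of the 5933 genes with a mean of at least 20 CPM, whose median was 49.7 CPM.

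**Figure D1:**
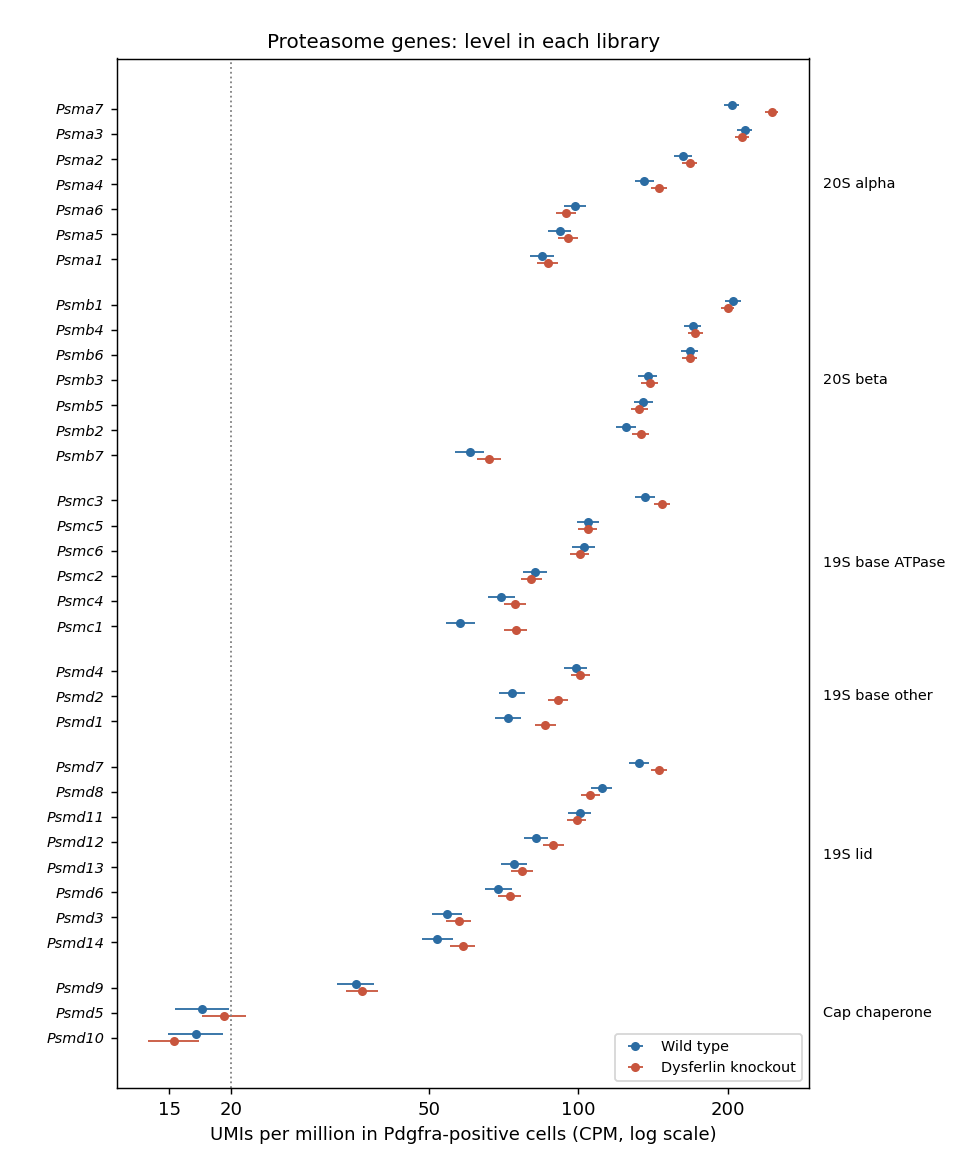
Level of each proteasome gene on a log axis of CPM in Pdgfra-positive cells, by role in the complex, with 1 point per library and exact Poisson 95% intervals as bars. The core genes reach further to the right than the cap genes, the pairs of points lie close together, and Psmd5 and Psmd10 lie left of the dotted line at 20 CPM, the level needed to enter the comparison.

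Among the alpha subunits, the summed level was 993 CPM in wild type and 1048 CPM in knockout cells. Psma7 (chr2:180036374-180042433, minus strand, mm10) had the highest mean level of all members, 204 CPM (196 to 211) in wild type and 245 CPM (238 to 252) in knockout cells. Psma3 was at 216 and 214 CPM. In wild type cells the intervals of Psma3, Psma7 and the beta subunit Psmb1 (205 CPM) overlapped, so their order was not resolved, while in knockout cells Psma7 lay above both. The lowest alpha subunit was Psma1, at 84.5 and 86.8 CPM. Psma2, Psma4, Psma5 and Psma6 lay between, from 91.8 to 163 CPM in wild type and from 94.4 to 168 CPM in knockout cells.

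Among the beta subunits, the summed level was 1001 and 1011 CPM. Psmb1, which has no proteolytic site, was the highest at 205 and 200 CPM. The 3 catalytic genes were not equal: Psmb6 was at 168 CPM in both libraries, Psmb5 at 135 and 133 CPM, and Psmb7 at 60.5 CPM (56.5 to 64.6) and 66.0 CPM (62.5 to 69.8). Psmb7 (chr2:38588036-38644087, minus strand) was thus the lowest of all 14 core genes in both libraries. Psmb2, Psmb3 and Psmb4 lay between 125 and 172 CPM.

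Among the ATPases of the base, which unfold the substrate, Psmc3 was highest at 136 and 147 CPM. Psmc1 was lowest by mean level, 57.9 CPM (54.0 to 62.0) in wild type and 74.8 CPM (71.0 to 78.8) in knockout cells, where Psmc4 stood beside it at 74.6 CPM. Psmc5 and Psmc6 were near 100 CPM in both libraries (105 and 104, 103 and 101). Psmc2 was at 81.8 and 80.5 CPM. Of the other base proteins, the ubiquitin receptor Psmd4 was highest at 98.8 and 101 CPM, and the scaffold Psmd1 was lowest at 72.2 and 85.8 CPM. Psmd2, the other large scaffold, was at 73.7 and 91.0 CPM.

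Among the 8 lid genes of the rule, Psmd7 was highest at 133 and 145 CPM, and Psmd14 was lowest at 52.0 CPM (48.4 to 55.9) and 58.5 CPM (55.1 to 62.0). These 2 proteins form a pair in the complex in which Psmd14 is the deubiquitinase and Psmd7 its inactive partner, and the transcript of the enzyme was the less abundant in both libraries. Psmd3 was at a level like that of Psmd14, 54.5 and 57.4 CPM, with overlapping intervals. Psmd8 and Psmd11 were at 111 and 106 and at 101 and 99.3 CPM, and Psmd6, Psmd12 and Psmd13 lay between 69.1 and 89.1 CPM.

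The chaperones that help to assemble the base were lower than every standard subunit that the rule takes in. Psmd9 was at 35.6 and 36.7 CPM, Psmd5 at 17.5 and 19.4 CPM, and Psmd10 lower still (245 and 294 UMIs), so that only Psmd9 entered the comparison with other genes. Psma8, a testis subunit, and Psmb11, the subunit of thymic cortical epithelium, each had 1 UMI in wild type and 0 in knockout cells, where 3 UMIs, the limit that a count of 0 allows, equal 0.156 CPM. Psmc3ip was at 4.85 and 3.18 CPM (70 and 61 UMIs), a log2 difference of −0.61 (−1.13 to −0.09).

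For the regulatory sequence, the 250 bases before the RefSeq start (GRCm38.p6, the build of mm10) were searched on both strands for CCAAT, the box bound by NF-Y, and for TGACNNNGC, the core of the antioxidant response element to which Nfe2l1 and Nfe2l2 bind. The tables held 30 of the 37 members and 25 of the 31 subunits. The catalytic gene Psmb7 was not among them and was not searched. CCAAT occurred before 10 of 25 subunit genes (40%; 6 of 11 core, 4 of 14 cap) and before 37.5% of 27025 genes. TGACNNNGC occurred before 4 of 25 (16%), Psmb5, Psmb6, Psmc6 and Psmd12, and before 11.5% of all genes. The 2 catalytic genes that hold the second motif are shown, then Psmc1, the member with the largest difference between the libraries, which holds the first. Capitals mark the motif, each stretch is read 5′ to 3′ on the strand of the gene, and stretches that overlap an annotated exon are left off. The Psmb5 stretch is chr14:54618023-54618245 (minus strand), the Psmb6 stretch chr11:70525107-70525356 (plus strand) and the Psmc1 stretch chr12:100109952-100110153 (plus strand).
Psmb5: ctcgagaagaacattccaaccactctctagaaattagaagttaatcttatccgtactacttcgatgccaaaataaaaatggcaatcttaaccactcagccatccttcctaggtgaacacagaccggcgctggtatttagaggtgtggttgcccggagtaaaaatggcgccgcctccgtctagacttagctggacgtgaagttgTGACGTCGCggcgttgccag
Psmb6: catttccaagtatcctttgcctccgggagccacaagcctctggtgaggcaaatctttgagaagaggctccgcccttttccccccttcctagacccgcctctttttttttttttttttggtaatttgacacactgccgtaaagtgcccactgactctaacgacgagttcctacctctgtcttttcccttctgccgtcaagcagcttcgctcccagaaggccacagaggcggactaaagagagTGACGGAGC
Psmc1: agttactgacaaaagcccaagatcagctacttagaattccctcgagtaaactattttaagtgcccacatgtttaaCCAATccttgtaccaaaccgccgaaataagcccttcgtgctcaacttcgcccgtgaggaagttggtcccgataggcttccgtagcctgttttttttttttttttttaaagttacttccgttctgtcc
In Psmb6 the motif ends 1 base before the start, and in Psmb5 it lies 47 to 39 bases before it. The Psmc1 motif lies 175 to 171 bases before the start. A match is a description of the letters, not evidence of binding.

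Between the libraries, the proteasome genes differed little. With no replicate to test against, a gene was counted where its CPM was at least 1.5-fold apart, and again where it was at a ratio of at least 5 to 4. At 1.5-fold, 0 of the 32 members with a mean of at least 20 CPM were higher in the knockout, where 5.07% of all 5933 genes were, and 0 were lower, where 3.59% were. At 5 to 4, 1 of 32 was higher, Psmc1, beside 15.2% of all genes, and 0 were lower, beside 9.37%. The log2 ratios of knockout over wild type ran from −0.08 to 0.37 with a median of 0.05 and an SD over genes of 0.107. The 5933 genes had the same median, 0.05, and an SD of 0.414. Of the 32 members, 22 were above 0 and 10 below. Their counting interval lay above 0 in 11, below 0 in none and included 0 in 21, while for all genes these counts were 2143, 1345 and 2445.

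The core sum was higher by 0.05 on the log2 scale (0.02 to 0.07) in knockout cells, a difference as large as the median of all genes: centred on that median it was −0.01. The cap sum was higher by 0.09 (0.06 to 0.11), or 0.03 after centring. By role, the log2 ratios were 0.08 for the alpha subunits, 0.01 (−0.02 to 0.05) for the beta subunits, 0.07 for the ATPases, 0.18 (0.12 to 0.25) for the other 3 base proteins and 0.06 for the lid. Nothing in the design tells how far such sums vary between libraries of 1 genotype.

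**Figure D2:**
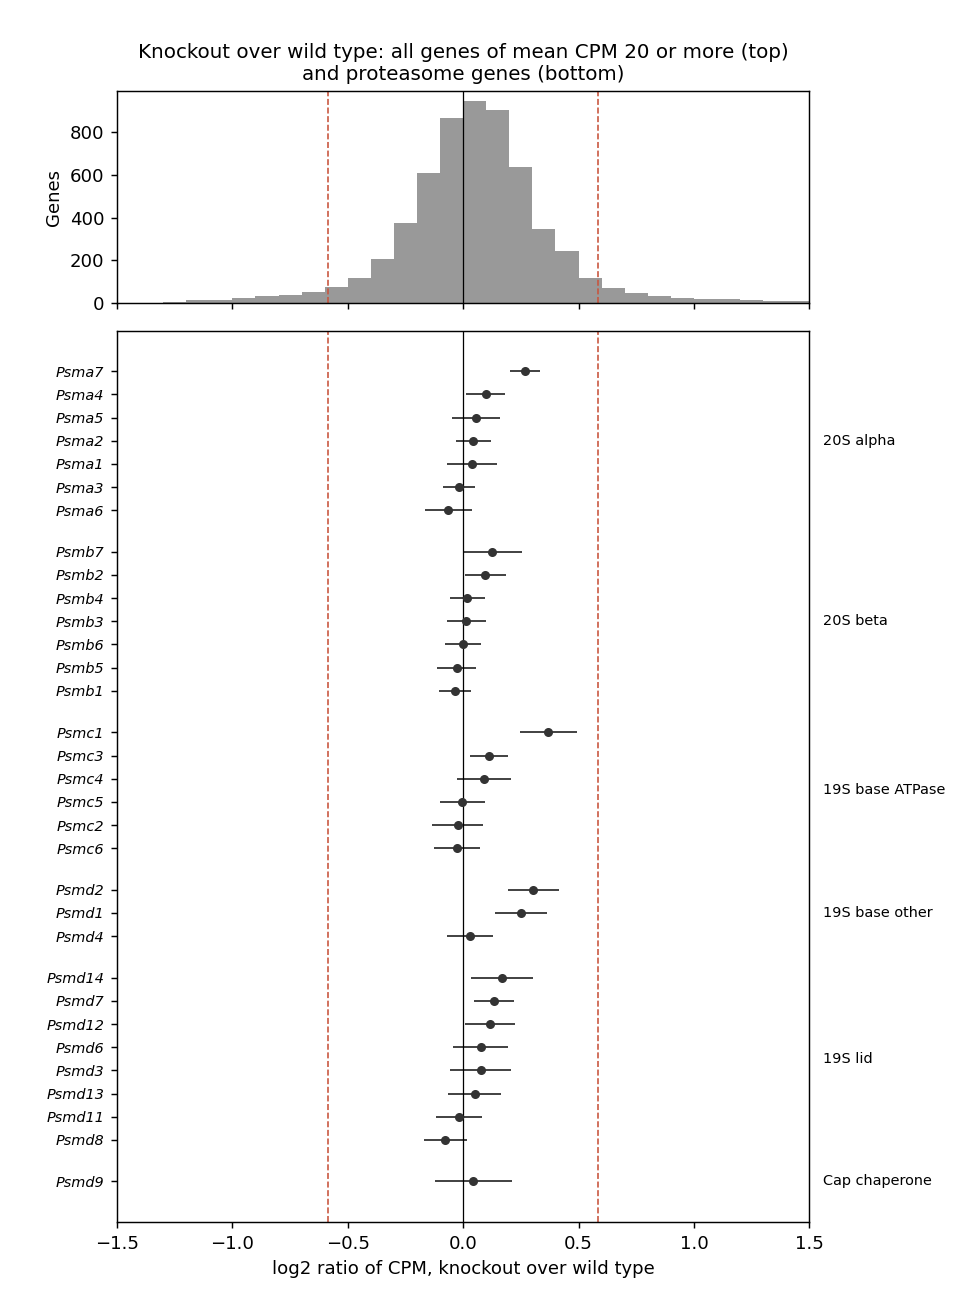
Log2 ratio of knockout over wild type CPM, as a histogram of the 5933 genes with a mean of at least 20 CPM (top; genes beyond 1.5 units either way fall outside the axis) and for the 32 proteasome genes that passed it (bottom; exact 95% counting intervals). No proteasome gene reaches the dashed lines at 1.5-fold, and Psmc1, Psmd2, Psma7 and Psmd1 lie furthest to the right.

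The largest difference was that of Psmc1, an ATPase of the base. Its log2 ratio was 0.37 (0.25 to 0.49), from 835 UMIs in wild type and 1434 in knockout cells. Psmd2, a scaffold of the base that docks ubiquitin shuttles, followed at 0.30 (0.19 to 0.42), and Psma7, of the alpha ring, at 0.27 (0.20 to 0.33). After them came Psmd1 at 0.25 (0.14 to 0.36). The Psmd2 value was smaller, 0.11, when every cell was thinned to 4000 UMIs, and 0.16 in cells of 5000 to 15000 UMIs. Thinning also took Psma7 to 0.18, and without the cells with at least 5 Egr1 UMIs it was 0.16.

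At the other end were the lid subunit Psmd8 at −0.08 (−0.17 to 0.02), the alpha subunit Psma6 at −0.06 (−0.16 to 0.04) and Psmb1 at −0.04 (−0.11 to 0.03). All 3 intervals include 0. Psmb1 was at 0.06 after thinning to 4000 UMIs, and Psmd8 at −0.18 without the Egr1 cells. The catalytic genes were close to 0: Psmb5 at −0.03 (−0.11 to 0.06), Psmb6 at 0.00 (−0.08 to 0.08) and Psmb7 at 0.13 (0.00 to 0.25). In cells of 5000 to 15000 UMIs Psmb7 was at −0.06, and without the Egr1 cells Psmb5 was at −0.13.

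Because tags fall near the 3′ end, a near-identical copy of that end can take reads from a gene. At 95% identity over at least 100 of the last 500 transcript bases, 8 of the 37 members had such a copy in the annotation. For Psma4, Psma5, Psmb5, Psmc1 and Psmd2 no such copy is among the counted genes, and the sources used here do not say how reads that match both were treated. This applies to Psmc1 and Psmd2, the members with the largest ratios, whose copies match over up to 289 and 328 bases. The end of Psmb11, a gene at 1 UMI, matches stretches of many transcripts. Psmb3 has a counted copy with 1 and 6 UMIs, and Psmd1 shares its end with a readthrough gene at 0 UMIs in both libraries. Psma2 overlaps AW209491 on the same strand, which was at 9.43 and 6.73 CPM.

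Depth moved with the level of the complex. In wild type cells the core went from 1806 CPM in cells under 5000 UMIs to 2338 CPM in cells of 20000 UMIs and over, and in knockout cells from 1659 to 2257 CPM. The cap went from 1278 to 1673 CPM and from 1316 to 1682 CPM. The knockout had 291 cells of 15000 to under 20000 UMIs and 244 of 20000 and over, against 89 and 61 in the wild type. Within the 5 bands of depth, from low to high, the core log2 ratio of knockout over wild type was −0.12, −0.07, −0.02, 0.05 and −0.05, so it was below 0 in 4 of 5 bands although the pooled value was 0.05. Its interval lay below 0 only under 5000 and at 5000 to under 10000 UMIs, and included 0 in the other bands. The cap ratio was 0.04, 0.01, 0.00, 0.05 and 0.01, each with an interval that includes 0. The median over members was −0.10, −0.06, −0.01, 0.08 and −0.05.

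The members with the largest ratios were followed through the same bands. Psmc1 was above 0 in all 5 bands (0.82, 0.26, 0.34, 0.07 and 0.51) and Psmd2 also (0.34, 0.16, 0.17, 0.35 and 0.25). The Psmc1 interval included 0 at 5000 to under 10000 and at 15000 to under 20000 UMIs. That of Psmd2 included 0 in every band but the one of 15000 to under 20000 UMIs. In the shallowest band Psmc1 was the only member at least 1.5-fold higher, beside 12.3% of the genes compared there. Psma7 was at −0.01 in the shallowest band and at 0.16, 0.23, 0.17 and 0.08 in the others. Psmd8 was below 0 in all 5 (−0.56, −0.13, −0.12, −0.23 and −0.09), with intervals that include 0. By state, Psmc1 was at 0.32 (0.12 to 0.53) in cells with Dpp4 and Pi16, at 0.27 (0.10 to 0.43) in cells with Egr1 and at −0.05 (−0.42 to 0.33) in cells with Gdf10. The bands hold different cells of the same 2 libraries and are not replicates.

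**Figure D3:**
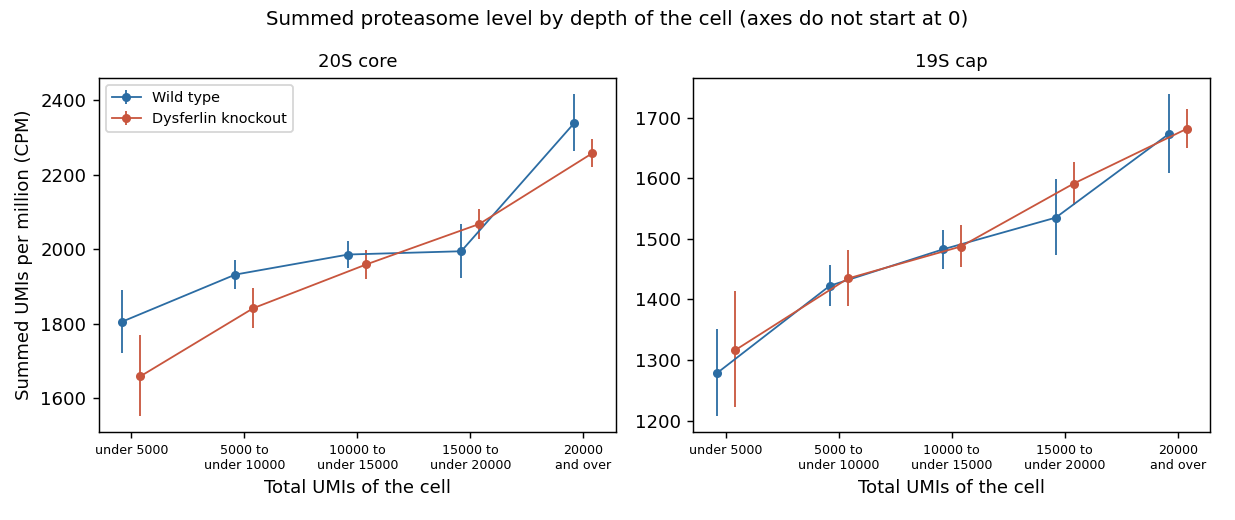
Summed CPM of the 20S core genes (left) and 19S cap genes (right) in cells grouped by their total UMIs, with exact Poisson 95% intervals and axes that do not start at 0. Both libraries are higher in deeper cells. At matched depth the knockout core points lie below the wild type in 4 of 5 bands, with overlapping intervals, while the cap points overlap.

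Cells were also grouped by UMIs of genes that mark states of FAPs. These groups overlap and differ in depth. Their intervals leave out the spread between cells, which matters most in groups of few cells. In cells with Dpp4 and Pi16 (at least 1 UMI each), genes of a progenitor-like fibroblast state, the core was at 2029 CPM in 460 wild type cells and 1970 CPM in 443 knockout cells (log2 ratio −0.04, −0.08 to −0.01). The cap was at 1513 and 1499 CPM (log2 ratio −0.01, −0.06 to 0.03), and 11 members were above 0 and 21 below. The median depths of these cells were 11043 and 15415 UMIs. In cells with at least 2 UMIs of Gdf10, the core was at 1873 and 2041 CPM (198 and 144 cells; log2 ratio 0.12, 0.06 to 0.19), with 21 members above 0 and 11 below. The core ratio was thus below 0 in the first group of cells and above 0 in the second.

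Cells with Cthrc1 and Postn, matrix genes of activated fibroblasts, had the highest core level of the wild type groups given, but not of the knockout groups. The core was at 2525 CPM (2411 to 2643) in 33 wild type cells, whose median depth was 21021 UMIs, and 2260 CPM (2201 to 2320) in 130 knockout cells at 18824 UMIs, a log2 ratio of −0.16 (−0.24 to −0.08). Cells with Cpxm1 and C1qtnf3 were at 2205 and 2161 CPM (42 and 256 cells; −0.03, −0.11 to 0.05). Cells with at least 2 UMIs each of Comp and Clu, 37 and 31 of them at median depths of 9643 and 15514 UMIs, were at 2076 and 2359 CPM (0.18, 0.06 to 0.31), the highest ratio of the states given and opposite in sign to that of the cells with Cthrc1 and Postn. In them 4 of the 32 members were at least 1.5-fold higher in the knockout, beside 16% of the genes with a mean of at least 20 CPM in these cells. The 4 were Psmb7 (18 and 48 UMIs), Psmc2 (21 and 58), Psmd9 (11 and 26) and Psmd13 (20 and 50), and the interval of Psmd9 included 0. In those with at least 5 Egr1 UMIs, an early response gene, the core was at 1941 and 2030 CPM (876 and 688 cells; 0.06, 0.04 to 0.09). In 168 wild type cells with Stmn4 and Inmt it was at 1941 CPM, while 17 knockout cells were too few to give.

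Cells with at least 2 UMIs of the interferon-gamma-induced chemokine Cxcl9 numbered 8 in the wild type, too few to give, and 218 in the knockout (15.2%). In these knockout cells the core was at 2323 CPM (2274 to 2373) and the cap at 1674 CPM (1633 to 1717), and their median depth was 16829 UMIs. Set beside the other knockout cells of the same depth band, a split chosen after the values were seen, the core was at 2161 against 1794 CPM, 2199 against 1926, 2277 against 2016 and 2416 against 2194 in the 4 bands from 5000 UMIs up, and the 2 intervals did not overlap in any of them. The cap was at 1579 against 1413, 1557 against 1478, 1770 against 1547 and 1678 against 1683 CPM. The cap intervals were apart only in the band of 15000 to under 20000 UMIs. The Cxcl9 cells numbered 42, 46, 56 and 70 in the 4 bands. All these intervals cover counting error only and leave out the spread between cells, which was wider than counting. Intervals that do not overlap thus do not show that a difference exceeds that spread. Without the Cxcl9 cells the core ratio of knockout over wild type was 0.00.

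Over single cells, the counts of each gene taken alone were scattered almost as counting would scatter them. For this, every cell was thinned at random to 4000 UMIs, which left 1323 wild type and 1318 knockout cells and dropped 210 and 117 shallower ones. The variance over the mean, or Fano factor, is 1 for counting noise alone, and the members ran from 0.932 to 1.09 in wild type and from 0.984 to 1.12 in knockout cells, where their median was 1.05. These members averaged from 0.141 (Psmd9) to 0.825 UMIs (Psma7) per thinned wild type cell, and from 0.136 to 0.933 per knockout cell. At such low means a Fano factor near 1 cannot show that cells are alike. The medians over all 5933 genes were 1.05 and 1.06. A Fano factor above 1.1 was found for 0 of 32 members in wild type and 2 in knockout cells (Psmb1 and Psma2), and for 31.7% and 35.3% of all genes. The variance beyond counting, divided by the squared mean, had a median of 0.0401 and 0.0950 over members and 0.192 and 0.231 over all genes.

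The members with the most variance beyond counting were the ATPase Psmc2 (0.242), Psmb3 (0.175) and Psmb5 (0.171) in wild type cells, and Psmd9 (0.322), Psmb7 (0.278) and Psmd3 (0.267) in knockout cells. Those with the least were Psma6 (−0.181), Psma5 (−0.175) and Psmd13 (−0.163) in wild type cells, and Psmc2 (−0.049), Psmc4 (−0.028) and Psmd8 (−0.007) in knockout cells. Psmc2 thus stood at opposite ends in the 2 libraries, and no gene was among the 3 highest in both. No interval was computed for these values, which divide by the square of a small mean, such as 0.136 UMIs per knockout cell for Psmd9. Whether their order, or the contrast for Psmc2, exceeds sampling error was not tested. Before thinning, a UMI of a given subunit was found in 36.5% (Psmd14) to 77.0% (Psma3) of wild type cells and in 46.1% (Psmd14) to 83.8% (Psma7) of knockout cells, which are deeper. Proteasome genes are expressed in every cell type, so no cell class here could give the share that free RNA adds.

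Summed over genes, the spread was wider than counting. A thinned wild type cell held 7.74 core UMIs on average (median 8, 5th to 95th percentile 3 to 14, SD 3.29), and a knockout cell 7.91 (median 8, 3 to 14, SD 3.58). The Fano factors of the core sum were 1.40 and 1.62. The cap sum averaged 5.87 and 6.11 UMIs, with Fano factors of 1.31 and 1.46. Only 2 and 7 cells held no core UMI, and 8 and 13 no cap UMI. Beyond counting noise, the coefficient of variation of all 31 subunits together was 22.9% in wild type and 27.0% in knockout cells. Core and cap sums of the same cell correlated at r = 0.26 (Spearman 0.24) over 1323 wild type cells and r = 0.31 (Spearman 0.29) over 1318 knockout cells. These values describe thinned cells that share a library. After thinning, the sum of all 31 subunits still correlated with the depth of the cell, at r = 0.15 in wild type and 0.20 in knockout cells. How far depth enters the spread and the correlation of core and cap was not tested.

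**Figure D4:**
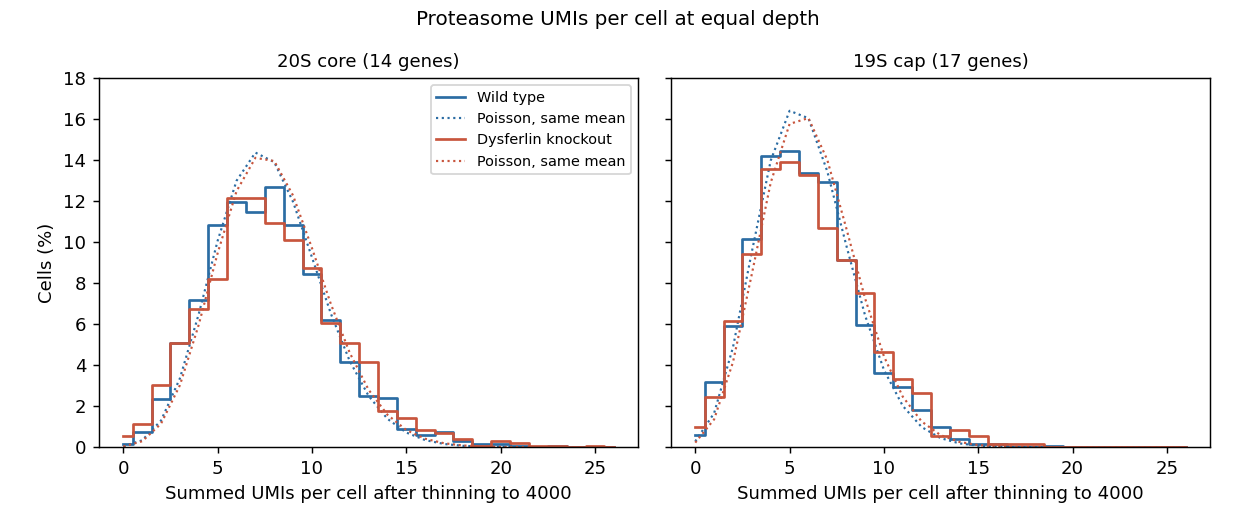
Share of cells (%) by their summed core UMIs (left, 14 genes) and cap UMIs (right, 17 genes) after thinning each cell to 4000 UMIs, with the Poisson distribution of the same mean dotted. The observed curves are lower at the peak and wider than the dotted ones, and the 2 libraries nearly coincide around medians of 8 and 6 UMIs.

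The constitutive catalytic genes were then set beside the inducible ones that take their place. Summed, Psmb5, Psmb6 and Psmb7 were at 363 CPM in wild type and 366 CPM in knockout cells (log2 ratio 0.01, −0.04 to 0.06), and Psmb8, Psmb9 and Psmb10 at 154 and 211 CPM (0.45, 0.38 to 0.53). The inducible genes made up 29.7% of the UMIs of all 6 (exact Clopper-Pearson 28.7 to 30.8) in wild type and 36.5% (35.6 to 37.4) in knockout cells. For Psmb8 beside Psmb5 the share was 33.0% and 43.8%, and for Psmb9 beside Psmb6 it was 9.31% and 16.0%. For Psmb10 beside Psmb7 it was 53.7% and 53.3%, with overlapping intervals, and this was the only pair in which the inducible gene outnumbered the constitutive one in the pooled cells. PCR duplicates are collapsed by UMIs, and the intervals treat UMIs as independent molecules.

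The share was higher in the knockout in each band of depth: 32.5% and 36.9% under 5000 UMIs (overlapping intervals), then 30.8% and 38.6%, 31.4% and 38.0%, 26.3% and 36.1%, and 21.8% and 34.9%. In the Cxcl9 knockout cells it was 43.2% (41.4 to 45.1), and Psmb8 reached 52.2% of its pair. Without these cells the knockout share was 34.3%. In cells with Dpp4 and Pi16 the share was 30.0% in wild type and 37.8% in knockout cells, and in cells with Gdf10 32.8% and 33.3%. The lowest shares were those of wild type cells with Cthrc1 and Postn, 12.6% (9.41 to 16.3, 33 cells), and with Cpxm1 and C1qtnf3, 17.5% (13.4 to 22.3, 42 cells), where the knockout cells were at 34.7% and 34.8%.

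**Figure D5:**
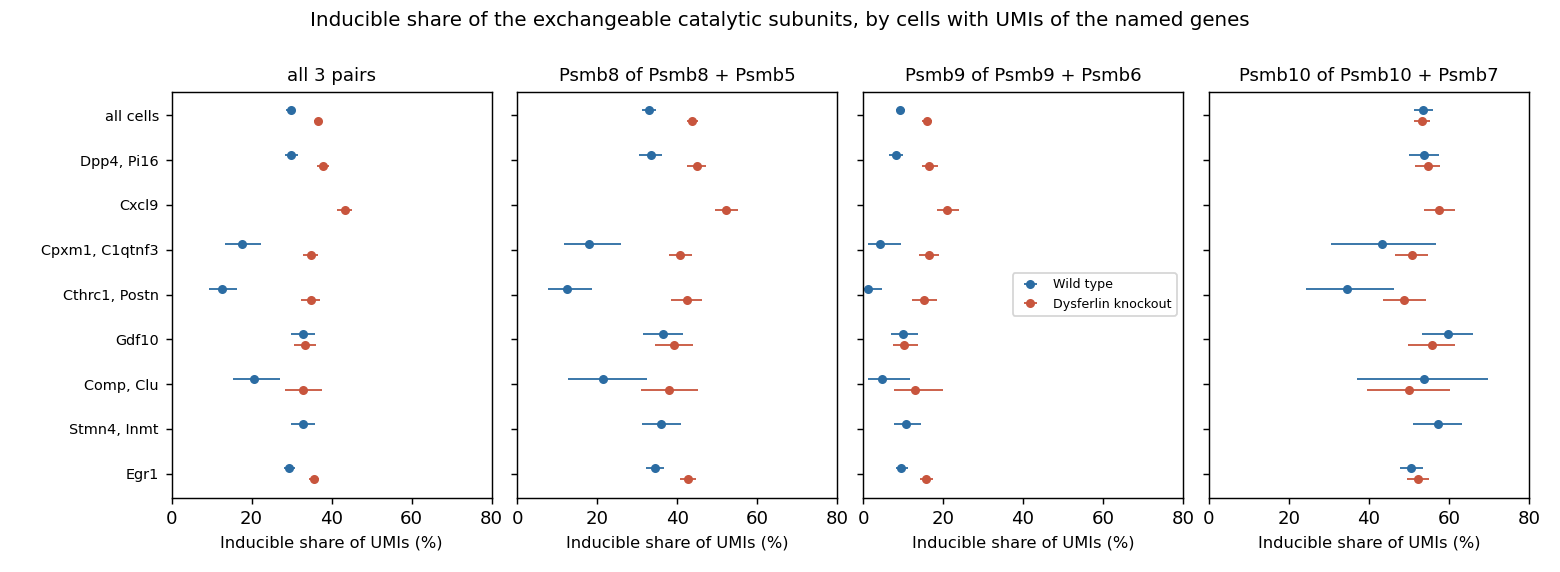
Inducible share (%) of the UMIs of each pair of exchangeable catalytic subunits and of all 3 pairs, in all cells and in cells with UMIs of the named genes, with exact 95% intervals; groups of under 20 cells are not drawn. Knockout points lie right of wild type points for all 3 pairs together, except in Gdf10 cells, where they overlap, while Psmb10 lies near 50% in most groups.

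Of 41 other genes of the pathway, 35 passed 20 CPM. Beside the 5.07% of all genes, 2 of the 35 were at least 1.5-fold higher in the knockout (Psmb8 and Psmb9), and the median log2 ratio was 0.07. Psmb8 was at 66.5 and 103 CPM (0.64, 0.52 to 0.75) and Psmb9 at 17.2 and 31.9 CPM (0.89, 0.68 to 1.11). The latter was below 20 CPM in wild type and passed that mean level only through the knockout, so its place in the count depends on the limit. Without the Cxcl9 cells Psmb8 was at 0.39, which is under 1.5-fold, and Psmb9 at 0.66. Psmb10 was at 70.0 and 75.4 CPM (0.11, −0.01 to 0.22). The interferon-induced activators Psme1 and Psme2 were at 0.17 (0.09 to 0.26) and 0.07 (−0.03 to 0.17). Psme1 was at 0.02 after thinning, and Psme2 at −0.05.

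Adrm1, a ubiquitin receptor of the cap that the naming rule leaves out, was counted at 39.8 and 16.7 CPM (−1.25, −1.46 to −1.05). A nearly identical gene, Gm9774, which matches 498 of the last 500 bases of Adrm1 at 99.4%, went the other way, 17.5 and 40.5 CPM. Summed, the 2 genes were at 57.3 CPM in wild type and 57.2 CPM in knockout cells (log2 ratio −0.00, −0.13 to 0.13), so the count for Adrm1 alone is uncertain.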

How the data were processed

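What the authors deposited is a matrix of unnormalised UMI counts for each group, on mm10. The submitters' processing notes name Cell Ranger 3.0.0 and also Seurat, whose use they do not describe, and 3.0.2 is the software version in the matrix headers (per the file headers). The sources used here do not say how barcodes were told from empty droplets or how reads matching several genes were treated. The sort had gated out doublets, and none were removed here in the main values.

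UMIs of the selected cells were summed per library and divided by their total, giving CPM. Level intervals are exact Poisson, ratio intervals exact conditional binomial and share intervals exact Clopper-Pearson, all at 95%, and cover counting error only. They treat UMIs as independent and leave out the spread between cells. The steps were checked on simulated counts. Genes with a mean of at least 20 CPM were compared (5933). Python 3.11.15, numpy 2.4.6, scipy 1.17.1 and scanpy 1.11.5 were used, with megablast for near-identical transcript ends (GENCODE M21).

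Named were the catalytic subunits, the highest and lowest member by mean level in each role, the 3 highest and lowest by ratio and by variance beyond counting, members outside the complex, and, of the related genes, the inducible subunits, Psme1, Psme2 and those at least 1.5-fold apart, of which 1 is not reported here. Genes named with values outside this rule were chosen after their values were seen, as were the members named in cells with Comp and Clu. Examples are Psma2, Psma3, Psmc5, Psmc6, Psmd11, Sem1, Gm9774 and AW209491. The members and lists were chosen with earlier results of these data known. Alternatives covered the cell gates, doublet removal, the total, thinning, depth, centring, the low-level limit and the Cxcl9 and Egr1 cells. RefSeq promoters were used as given for GRCm38.p6. Protein sequences were not used here.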

Additional observations from a re-analysis of the deposited data

How the results depend on the processing

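Over 12 settings the core log2 ratio ran from −0.03 to 0.06 and the cap ratio from 0.01 to 0.10. The core ratio left its main counting interval in 5 of the 12 settings and the cap ratio in 4. The core ratio was −0.0064 with mitochondrial and ribosomal protein genes left out of the total and −0.0074 centred on the median of all genes. It was −0.032 in cells of 5000 to 15000 UMIs, 0.0037 without the Cxcl9 cells and 0.012 without the Egr1 cells. The cap ratio was 0.0332 and 0.0323 under the first 2 of these settings, 0.014 in cells of 5000 to 15000 UMIs and 0.058 after thinning to 4000 UMIs. The median over members ran from −0.04 to 0.06 over 14 settings. In each it stayed within −0.05 to 0.15, a range set around the main value by the median counting error of single members. That range is wider than the counting error of a median over members, so staying inside it says little. Without a low-level limit 1 member was at least 1.5-fold lower (Psmc3ip, 61 UMIs in knockout cells). At a ratio of 5 to 4, 1 was higher (Psmc1). The inducible share differed by 6.78 percentage points between the libraries and by 4.55 points without the Cxcl9 cells. Of 204 values for single named genes, 179 stayed within their counting interval and 25 did not, none of these changing the sign of a called value. The cause was not tested.

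Scrublet called 2 wild type barcodes and 1 knockout barcode as doublets, too few to show that it worked. No paired analysis was possible because each group was deposited as 1 pooled matrix, in which the numbered samples cannot be told apart, and for the same reason leaving out a sample was not done. Depth limits Psma8, Psmb11 and Psmc3ip most.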
